A study of Mus musculus with 4 samples.

Results

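The genes described are the families of adhesion proteins and secreted linkers that join the presynaptic to the postsynaptic membrane, measured in the dorsal striatum of mice. They were chosen by symbol, with earlier results of these data known: the neurexins (Nrxn2 and Nrxn3 among them), the neuroligins Nlgn1 to Nlgn3, Lrrtm1 to Lrrtm4, Lrfn1 to Lrfn5, Slitrk1 to Slitrk6, Flrt1 to Flrt3, the contactins Cntn1 to Cntn6, the cerebellins Cbln1 to Cbln4, the latrophilins Lphn1 to Lphn3 (now Adgrl) and the teneurins Odz1 to Odz4 (now Tenm). Of the 25259 genes in the deposited table, 42 entries met this rule. They stand for 41 genes, because Flrt3 has 2 entries at one locus with almost the same reads and was counted once. A mean of at least 10 normalised reads was required for testing, which 40 of the 41 genes reached. Cbln3, at a mean of 7.98, did not.

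RNA was sequenced from laser-captured tissue of C57BL/6 mice aged 8 weeks, taken either from the dorsomedial striatum (DMS) or from the dorsolateral striatum (DLS). The mice were wild-type or Foxp2hum/hum, that is, homozygous for a Foxp2 allele humanised in its protein sequence. The 4 groups held 11 libraries of wild-type DMS, 11 of wild-type DLS, 12 of Foxp2hum/hum DMS and 12 of Foxp2hum/hum DLS. The labels tie no library to an animal or to 1 of the 3 flow cells, so the p-values measure the spread between libraries.

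At many synapses, neurexins on the axon terminal bind partners on the receiving cell, among them neuroligins and the leucine-rich repeat proteins LRRTM. Cerebellins are secreted and bridge neurexins to glutamate receptors of the delta type. Latrophilins, which are adhesion G protein-coupled receptors, bind teneurins and FLRT proteins, while SLITRK and LRFN proteins bind receptor tyrosine phosphatases, and contactins are immunoglobulin-type adhesion proteins anchored to the membrane by a lipid. In the striatum such proteins act where cortical and thalamic axons contact the spiny projection neurons, which are themselves joined by inhibitory synapses.

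RefSeq promoters (build GRCm38.p6) were found for 31 of the 41 genes. For 11 of them an entry started exactly at the 5′ end of the gene, and 4 of these 11 also differed between the regions in at least 1 genotype. Their 250 bases before the start are shown, since these are the promoters of genes whose level differed: Cntn5, Odz4 and Flrt3 were higher in DMS and Lphn1 was lower. Each reads 5′ to 3′ on the strand of the gene, with CG pairs in capitals. They lie at chr9:10904776-10905025 (minus strand, Cntn5), chr7:96170994-96171243 (plus strand, Odz4), chr2:140671477-140671726 (minus strand, Flrt3) and chr8:83899848-83900097 (plus strand, Lphn1), all on GRCm38.p6. All other positions are on mm9.
Cntn5: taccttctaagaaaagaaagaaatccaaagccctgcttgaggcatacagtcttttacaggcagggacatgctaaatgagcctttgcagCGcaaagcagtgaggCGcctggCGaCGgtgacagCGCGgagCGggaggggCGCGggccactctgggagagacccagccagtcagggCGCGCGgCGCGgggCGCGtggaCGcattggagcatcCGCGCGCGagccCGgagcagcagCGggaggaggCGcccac
Odz4: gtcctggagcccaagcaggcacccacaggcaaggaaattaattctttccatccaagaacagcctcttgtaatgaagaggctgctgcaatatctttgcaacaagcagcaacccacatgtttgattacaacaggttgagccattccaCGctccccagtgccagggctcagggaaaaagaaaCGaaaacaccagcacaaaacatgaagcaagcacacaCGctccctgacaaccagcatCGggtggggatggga
Flrt3: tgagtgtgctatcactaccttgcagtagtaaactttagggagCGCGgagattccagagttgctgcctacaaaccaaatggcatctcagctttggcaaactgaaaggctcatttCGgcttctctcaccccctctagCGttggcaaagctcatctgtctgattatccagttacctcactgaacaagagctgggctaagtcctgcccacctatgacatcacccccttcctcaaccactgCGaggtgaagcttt
Lphn1: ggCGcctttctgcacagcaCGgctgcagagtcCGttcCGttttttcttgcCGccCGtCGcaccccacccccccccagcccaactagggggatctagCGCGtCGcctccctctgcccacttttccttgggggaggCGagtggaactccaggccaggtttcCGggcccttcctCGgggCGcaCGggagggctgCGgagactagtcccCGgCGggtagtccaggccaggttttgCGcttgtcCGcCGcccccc
The windows differ in base composition. Cntn5 holds 24 CG pairs and Lphn1 21, against 4 in Odz4 and 5 in Flrt3, and the median over the 32851 RefSeq promoters was 6. Among these 4, a CG-rich and a CG-poor window were each found upstream of a gene higher in DMS. With Lphn1 alone lower in DMS, the 4 windows cannot show whether CG content follows the direction of the regional difference. The letters TAAACA, a core recognised by forkhead factors, were searched on both strands and occur in none of these 4 windows. They were found for 3 of the 31 genes (9.68%), namely Cntn3, Nlgn1 and Odz1, and in 12.03% of all RefSeq promoters.

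The labels were checked with genes outside the families. Foxp2 ran from 887 through a median of 1435 to 1703 normalised reads in wild-type DMS and from 1147 through 1287 to 1784 in Foxp2hum/hum DMS, and the DLS groups overlapped as widely (754 to 1449 and 752 to 1447). Its log2 difference between genotypes was 0.0085 in DMS and -0.08 in DLS, so its level checks no genotype label. Cnr1, the cannabinoid receptor gene known to be higher laterally, and Crym, higher medially, separated the regions without overlap in both genotypes. Total reads over the genes ran from 16.79 to 41.01 M, and mitochondrially encoded genes took 11.9% to 30.7% of them. All 10 markers of striatal projection neurons were present. Their summed level was lower in DMS, from 98769 to 136500 normalised reads in wild-type against 143866 to 178732 in DLS, and from 91905 to 122975 against 142353 to 169595 in Foxp2hum/hum. A list for choroid plexus and ependyma (10 genes) stood above DLS in DMS, with a median sum of 883 (400 to 10934) against 221 (177 to 412) in wild-type and 1501 (703 to 7213) against 228 (159 to 305) in Foxp2hum/hum. Neuroblast markers (6 genes) did so as well, at 1456 (980 to 3100) against 364 (332 to 486) and 1766 (895 to 3363) against 399 (238 to 456). A list for cortical excitatory neurons (7 genes found) had no common direction, with medians of 301 in DMS against 211 in DLS in wild-type and 151 against 251 in Foxp2hum/hum. Its highest sums were in DLS, at 1249 in wild-type and 1250 in Foxp2hum/hum, against 539 and 326 in DMS. Septal and pallidal markers (6 genes) had lower medians in DMS, 476 against 722 in wild-type and 546 against 649 in Foxp2hum/hum. So did striatal interneurons (8 genes), at 4711 against 5379 and 4421 against 5471, and lists for microglia and endothelium. The list for oligodendrocyte precursors had higher medians in DMS, and oligodendrocytes and astrocytes had no common direction. Ranges overlapped between regions for each of these further lists. No marker in these lists was at 0 throughout. The part of the lists in the regional differences below was not tested, beyond a fit with the choroid plexus gene Ttr as a covariate. Fewer cells of a type and less RNA per cell cannot be told apart in such samples.

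The first question was whether the adhesion genes separate the 2 striatal territories. The calls are described by family below, and families were not tested against each other. In wild-type mice 12 of 40 genes passed at an adjusted p of 0.05 in the limma test over all 19561 genes (17.3% of which passed), 7 of them higher in DMS (8.54% of all genes) and 5 lower (8.72%). In Foxp2hum/hum mice 14 of 40 passed (18.1% of all genes), 8 higher (9.33% of all genes) and 6 lower (8.82%). Those higher in DMS in both genotypes were Odz2, Odz3, Odz4, Cntn3, Cntn5, Lrfn2 and Lrrtm1, and those lower in both were Lrrtm2, Lphn1, Slitrk2 and Slitrk4. How many of all genes passed in both genotypes in the same direction was not counted. Nrxn3 passed in wild-type alone, and Flrt3, Slitrk6 and Cbln2 in Foxp2hum/hum alone. The median absolute log2 difference of the families reached 0.25 for wild-type mice and 0.26 for the humanised ones, beside 0.19 and 0.18 over all genes tested. Only Cntn5 in wild-type had ranges that did not overlap between DMS and DLS, which 1.95% of all genes did (no member in Foxp2hum/hum, 2.2% of all genes).

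**Figure D1:**
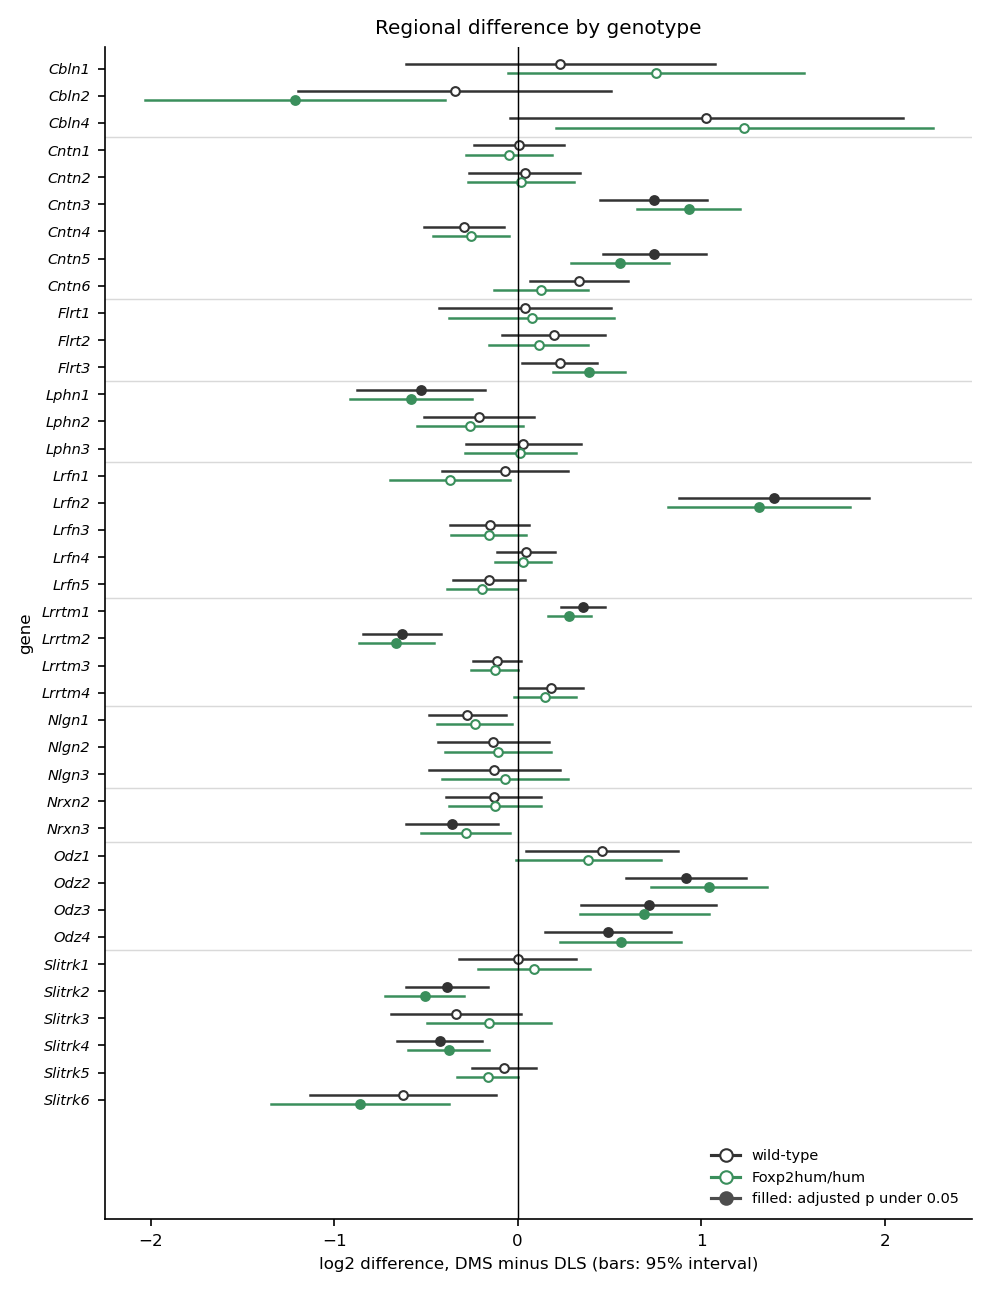
Log2 difference of DMS minus DLS (x axis) for the tested genes reported here (y axis, grouped by family), in wild-type (black) and Foxp2hum/hum (green). Bars are 95% intervals and filled points passed at adjusted p 0.05; Odz2, Odz3, Odz4, Cntn3, Cntn5 and Lrfn2 lie to the right in both genotypes, while Lrrtm2, Lphn1 and Slitrk2 lie to the left.

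Nrxn3, a presynaptic neurexin, differed between the regions in wild-type. Its values ran from 2542 through a median of 3038 to 5631 normalised reads in wild-type DMS and from 2956 through 3984 to 6321 in wild-type DLS. The Foxp2hum/hum values ran from 2568 through 2940 to 4574 in DMS and from 3220 through 3588 to 6362 in DLS. Medians were lower in DMS in both genotypes, with wide overlap. DMS minus DLS (log2) came to -0.36 ± 0.12 (SE) in wild-type (limma adjusted p = 0.0386) and -0.28 ± 0.12 in Foxp2hum/hum (adjusted p = 0.0955). The difference between these 2 values was 0.07 ± 0.17 and did not pass either. The wild-type call was lost, at adjusted p values up to 0.0929, without any 1 of the libraries 24, 32, 34, 50, 56, 65, 70, 76, 77 and 89. It was also lost in a fit of the compared groups alone, after quantile normalisation and with edgeR (adjusted p up to 0.151). Nrxn2 had log2 differences of -0.13 and -0.12 and passed in neither genotype. An antisense gene inside it, Gm14964, had 16.3% as many reads as Nrxn2. Full values for Nrxn3 are given here after they were seen, as its difference was under the log2 size of 0.5 set for naming a gene.

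The neuroligins, postsynaptic partners of neurexins, held no gene that passed. Nlgn1, found mainly at excitatory synapses, came closest, with log2 differences of -0.27 ± 0.10 in wild-type (adjusted p = 0.0632) and -0.23 ± 0.10 in Foxp2hum/hum (adjusted p = 0.102). Nlgn2, the neuroligin of inhibitory synapses, and Nlgn3 lay between -0.13 and -0.07. All 6 values were below 0, and the widest 95% interval among Nlgn2 and Nlgn3 reached -0.48.

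The LRRTM family, a second set of neurexin partners at excitatory synapses, split by region. Lrrtm2 ran from 623 through a median of 993 to 1180 normalised reads in wild-type DMS and from 944 through 1565 to 1759 in wild-type DLS. Libraries of Foxp2hum/hum mice ran from 727 through 844 to 1085 in DMS and from 945 through 1362 to 1723 in DLS. Most DLS libraries thus lay above every DMS library of their genotype, with an overlap at the low end of DLS. On the log2 scale, DMS differed from DLS by -0.63 ± 0.11 in wild-type (limma adjusted p = 8.74e-06) and -0.66 ± 0.10 in Foxp2hum/hum (adjusted p = 1.36e-06).

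Lrrtm1 (chromosome 6, 77192683 to 77207785) went the other way. It ran from 956 through 1097 to 1280 in wild-type DMS and from 762 through 850 to 966 in wild-type DLS, so that the highest DLS value only just passed the lowest DMS value. In Foxp2hum/hum it ran from 873 through 1077 to 1244 in DMS and from 749 through 861 to 979 in DLS, with more overlap. The log2 difference was 0.36 ± 0.06 (adjusted p = 1.16e-05) and 0.28 ± 0.06 (adjusted p = 0.000232). It is named for this contrast with Lrrtm2 after its values were seen. Lrrtm3 (-0.11 and -0.13) and Lrrtm4 (0.18 and 0.15) did not pass in either genotype. Lrrtm4 overlaps the antisense gene Gm4409, whose reads came to 75.4% of the Lrrtm4 value.

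Because both genes are read in the same library, their ratio does not depend on the scaling between libraries. The log2 ratio of Lrrtm1 to Lrrtm2 reads had a median of 0.18 in wild-type DMS (-0.17 to 0.75) and -0.83 in wild-type DLS (-1.07 to -0.18). In Foxp2hum/hum the median was 0.27 in DMS (-0.20 to 0.78) and -0.70 in DLS (-1.19 to 0.0019). Most DMS libraries therefore held more reads of Lrrtm1 and most DLS libraries more of Lrrtm2. The wild-type ranges only just missed each other, and those of Foxp2hum/hum overlapped. The ratio is given as a description with no test, and its zero point has no meaning of its own, since the genes differ in length.

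**Figure D2:**
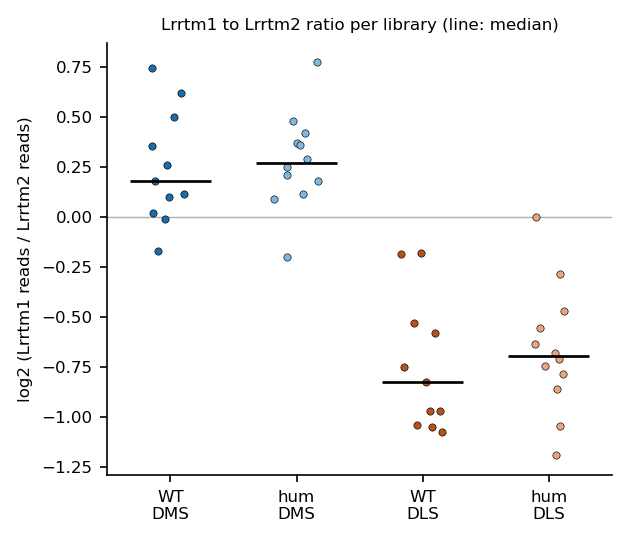
Log2 ratio of Lrrtm1 to Lrrtm2 reads (y axis) in each library of the 4 groups (x axis; WT, wild-type; hum, Foxp2hum/hum), with the group median as a line. DMS medians of 0.18 and 0.27 stand above DLS medians of -0.83 and -0.70.

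Lrrtm1, Lrrtm2 and Lrrtm3 each lie on the opposite strand inside an alpha-catenin gene (Ctnna2, Ctnna1 and Ctnna3), and the host had at least as many reads as the member in 46 of 46 libraries, which is how counts over whole gene spans on both strands behave. Spread evenly along the host, reads of the host alone would make up 2.06% of the Lrrtm1 value, 4.49% of Lrrtm2 and 1.36% of Lrrtm3. The reads of Ctnna1 outside Lrrtm2 were also lower in DMS, with medians of 1003 against 1470 in wild-type and 907 against 1316 in Foxp2hum/hum. Those of Ctnna2 outside Lrrtm1 were nearly level, at 1472 against 1405 and 1426 against 1374. The same nesting holds for Flrt1 in Macrod1, Flrt3 in Macrod2 and Lrfn4 in Pcx.

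The LRFN proteins, also called SALMs, are postsynaptic and bind receptor phosphatases or each other. Lrfn2 (chromosome 17, 49071704 to 49236913) was the single member that differed and had the widest regional difference among the members that passed in both genotypes. It ran from 33.8 through a median of 54.1 to 99.9 normalised reads in wild-type DMS and from 7.08 through 18.4 to 69.8 in wild-type DLS. The Foxp2hum/hum values ran from 32.2 through 60.6 to 99.1 in DMS and from 13.9 through 19.5 to 59.0 in DLS. Few DLS libraries reached into the DMS range of their genotype, and the rest lay below it. DMS minus DLS (log2) came to 1.398 ± 0.26 in wild-type (limma adjusted p = 4.52e-05) and 1.31 ± 0.25 in Foxp2hum/hum (adjusted p = 5.5e-05).

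The 4 other LRFN genes were more abundant than Lrfn2 and did not follow it. Lrfn1 had medians of 92.7 in wild-type DMS and 104 in wild-type DLS, and of 81.9 and 105 in Foxp2hum/hum (log2 -0.07 and -0.37, adjusted p = 0.831 and 0.116). Lrfn3 had medians of 275 and 303, and of 260 and 301 (log2 -0.15 and -0.16). Neither passed, and their ranges overlapped widely. Lrfn4 was the most even, at 474 and 429, and 462 and 475 (log2 0.04 and 0.03, with 95% intervals inside -0.12 to 0.20). Lrfn5 had medians of 654 and 780, and of 622 and 753 (log2 -0.16 and -0.19, adjusted p = 0.306 and 0.160).

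Of the SLITRK genes, whose products bind receptor phosphatases across the cleft, Slitrk2 and Slitrk4 were lower in DMS in both genotypes and none was higher. Slitrk2 (X chromosome, 63902493 to 63914568) ran from 432 through a median of 559 to 772 in wild-type DMS and from 500 through 744 to 942 in wild-type DLS. Libraries of Foxp2hum/hum mice ran from 418 through 536 to 689 in DMS and from 542 through 731 to 1035 in DLS. Groups overlapped over much of their range while the medians kept apart. On the log2 scale, DMS differed from DLS by -0.38 ± 0.11 (limma adjusted p = 0.0108) and -0.51 ± 0.11 (adjusted p = 0.000335).

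Slitrk6 (chromosome 14, 111147800 to 111154371), at low levels, ran from 15.9 through 33.1 to 73.0 in wild-type DMS and from 20.5 through 51.5 to 85.9 in wild-type DLS. In Foxp2hum/hum it ran from 11.5 through 31.9 to 60.2 in DMS and from 37.03 through 52.7 to 85.5 in DLS. The ranges overlapped in both genotypes, least in Foxp2hum/hum. The log2 difference was -0.63 ± 0.25 in wild-type (adjusted p = 0.0807) and -0.86 ± 0.24 in Foxp2hum/hum (adjusted p = 0.00751), and their difference of -0.23 ± 0.35 did not pass. Slitrk4 had log2 differences of -0.43 ± 0.11 (adjusted p = 0.00562) and -0.38 ± 0.11 (adjusted p = 0.0105). Slitrk1, Slitrk3 and Slitrk5 passed in neither genotype, with log2 differences from -0.34 to 0.09.

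The teneurins, large transmembrane proteins found on both sides of the synapse, had higher medians in DMS for all 4 genes. Of these 4 genes, 3 passed in both genotypes, and the matching share of all genes was not counted. Odz2 (chromosome 11, 35820158 to 37049466) ran from 692 through a median of 1203 to 2513 in wild-type DMS and from 479 through 586 to 1155 in wild-type DLS. The Foxp2hum/hum values ran from 917 through 1034 to 1766 in DMS and from 382 through 501 to 974 in DLS. A few high DLS libraries reached the DMS range in each genotype. DMS minus DLS (log2) came to 0.92 ± 0.16 in wild-type (limma adjusted p = 2.45e-05) and 1.04 ± 0.16 in Foxp2hum/hum (adjusted p = 8.44e-07).

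Odz3 (chromosome 8, 49313036 to 49760044) ran from 737 through 1299 to 2287 in wild-type DMS and from 470 through 699 to 1322 in wild-type DLS. Libraries of Foxp2hum/hum mice ran from 656 through 1102 to 1769 in DMS and from 444 through 583 to 1094 in DLS. Overlap was wider than for Odz2, with the medians still far apart. On the log2 scale, DMS differed from DLS by 0.71 ± 0.18 (adjusted p = 0.00327) and 0.69 ± 0.17 (adjusted p = 0.00281).

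Odz4 (chromosome 7, 103319754 to 104059603), whose CG-poor promoter is shown above, ran from 927 through 1186 to 2548 in wild-type DMS and from 651 through 780 to 1448 in wild-type DLS. In Foxp2hum/hum it ran from 864 through 1086 to 1776 in DMS and from 454 through 839 to 1232 in DLS. The groups overlapped in both genotypes. The log2 difference was 0.49 ± 0.17 (adjusted p = 0.0382) and 0.56 ± 0.16 (adjusted p = 0.0106). The wild-type call was lost, at adjusted p values up to 0.0930, without any 1 of the libraries 14, 24, 26, 38, 43, 44, 51, 58, 72, 76, 86, 88 and 93, where the log2 difference still lay between 0.39 and 0.56 over all 46 such fits. It was also lost with Ttr or the mitochondrial share as a covariate (adjusted p up to 0.129). Reads of the overlapping antisense gene Gm15415 came to 49.2% of the Odz4 value and cannot be told apart from it. Odz1, far less abundant, had medians of 124 against 96.8 and 133 against 114, and log2 differences of 0.46 ± 0.21 (adjusted p = 0.123) and 0.38 ± 0.20 (adjusted p = 0.188). The antisense gene Gm10483, which overlaps Odz1, had 26.5% as many reads.

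**Figure D3:**
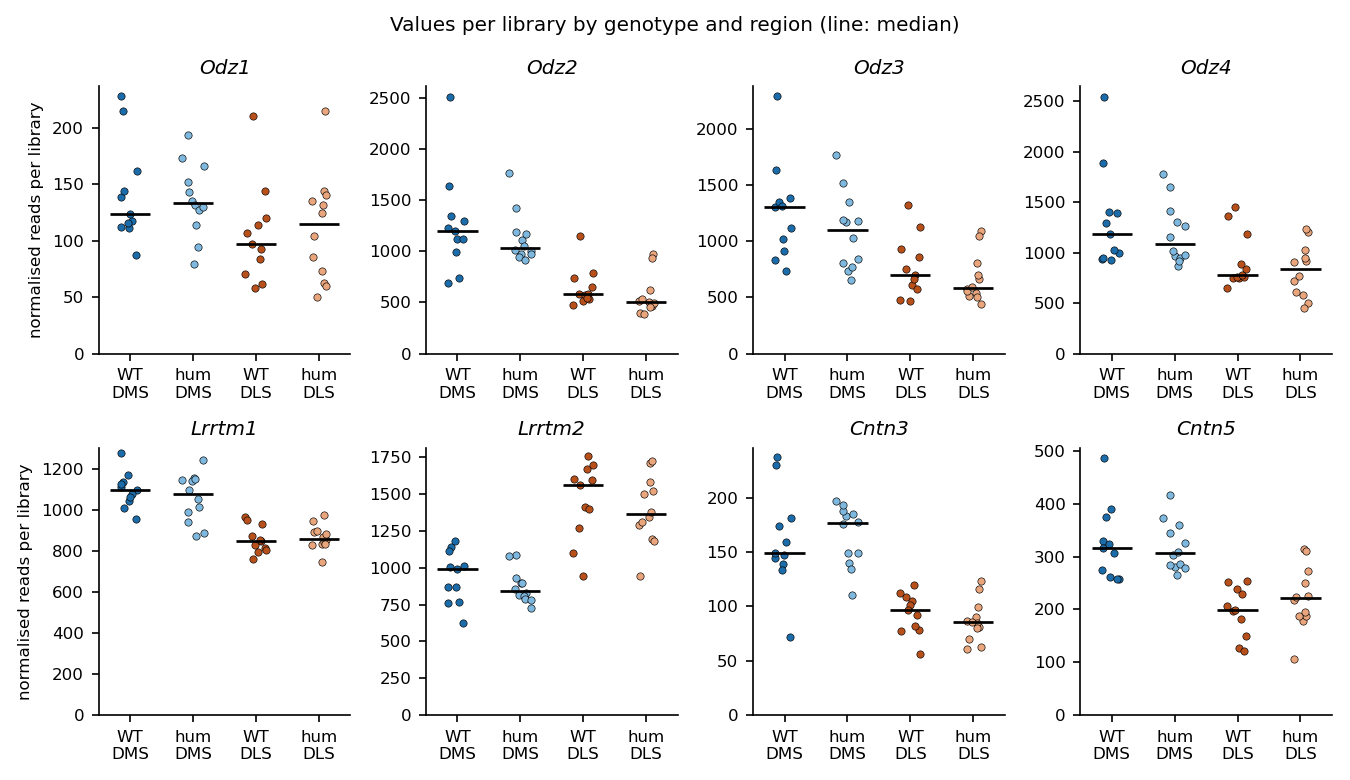
Normalised reads (y axes, each from 0) of the 4 teneurins, Lrrtm1, Lrrtm2, Cntn3 and Cntn5 in each library of the 4 groups (x axes; WT, wild-type; hum, Foxp2hum/hum), with group medians as lines. Odz2, Odz3 and Odz4 sit higher in DMS, each with 1 wild-type DMS library above the rest (2513, 2287 and 2548), and Lrrtm2 sits higher in DLS.

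The latrophilins are presynaptic and postsynaptic receptors for teneurins. Lphn1 (chromosome 8, 86424004 to 86465853), the most abundant member per exon length, ran opposite to the teneurins. It ran from 2648 through a median of 4405 to 7018 in wild-type DMS and from 3721 through 6129 to 9523 in wild-type DLS. The Foxp2hum/hum values ran from 1960 through 3837 to 5416 in DMS and from 3198 through 5523 to 9429 in DLS. All groups overlapped, and the DLS medians were the higher. DMS minus DLS (log2) came to -0.52 ± 0.17 in wild-type (limma adjusted p = 0.0275) and -0.58 ± 0.17 in Foxp2hum/hum (adjusted p = 0.00857). The wild-type call was lost after quantile normalisation (adjusted p = 0.124, the highest of its 14 alternatives) and without any 1 of the libraries 34, 50, 70, 77 and 89 (adjusted p up to 0.0659). The antisense gene Gm10644 overlaps Lphn1, and its reads came to 81.5% of the Lphn1 value, so the 2 were not measured separately.

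Lphn2 had medians of 702 and 764 in wild-type DMS and DLS and of 656 and 771 in Foxp2hum/hum (log2 -0.21 and -0.26, adjusted p = 0.369 and 0.230). Lphn3 had medians of 1182 and 1095, and of 1013 and 955 (log2 0.03 and 0.02). Neither gene passed in either genotype. The 95% intervals of the log2 difference stayed within -0.55 and 0.09 for Lphn2 and within -0.29 and 0.35 for Lphn3. The antisense gene Gm16054 lies inside Lphn3, with 29.4% as many reads.

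Among the FLRT genes, which encode ligands of latrophilins and of UNC5 receptors, Flrt3 (chromosome 2, 140476650 to 140497205) passed in Foxp2hum/hum alone. It ran from 603 through 965 to 1207 in wild-type DMS and from 597 through 776 to 929 in wild-type DLS. Libraries of Foxp2hum/hum mice ran from 663 through 876 to 1095 in DMS and from 532 through 658 to 855 in DLS. DMS medians were higher in both genotypes and the ranges overlapped. On the log2 scale, DMS differed from DLS by 0.23 ± 0.10 (limma adjusted p = 0.119) and 0.39 ± 0.10 (adjusted p = 0.00243), and the difference between the genotypes, 0.16 ± 0.14, did not pass. Flrt1 and Flrt2 lay between 0.04 and 0.20 and did not pass.

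Of the contactins, Cntn3 and Cntn5 were higher in DMS in both genotypes. Cntn3 (chromosome 6, 102113300 to 102414661) ran from 71.99 through a median of 149 to 237 in wild-type DMS and from 56.2 through 96.8 to 120 in wild-type DLS. In Foxp2hum/hum it ran from 111 through 177 to 197 in DMS and from 60.8 through 85.5 to 123.35 in DLS. In wild-type, 1 low DMS library made the overlap, and in Foxp2hum/hum the top of DLS just reached the bottom of DMS. The log2 difference was 0.74 ± 0.15 in wild-type (limma adjusted p = 0.000116) and 0.93 ± 0.14 in Foxp2hum/hum (adjusted p = 8.03e-07).

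Cntn5 (chromosome 9, 9660891 to 10904775), whose CG-rich promoter is shown above, ran from 258 through 317 to 488 in wild-type DMS and from 121 through 198 to 253 in wild-type DLS. The Foxp2hum/hum values ran from 265 through 307 to 417 in DMS and from 106 through 221 to 314 in DLS. No wild-type DLS library reached the lowest DMS value, whereas in Foxp2hum/hum the ranges overlapped. DMS minus DLS (log2) came to 0.75 ± 0.14 (adjusted p = 5.66e-05) and 0.56 ± 0.13 (adjusted p = 0.00151), and the 2 differed by -0.19 ± 0.19, which did not pass. Cntn4 (-0.29 and -0.25) and Cntn6 (0.34 and 0.13) did not pass in either genotype. Cntn1 and Cntn2, contactins tied to myelinated axons as well as to synapses, had log2 differences from -0.05 to 0.04.

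The cerebellins were near the lower limit of measurement. Cbln2 ran from 0 through a median of 11.8 to 23.1 in wild-type DMS and from 5.02 through 12.98 to 35.5 in wild-type DLS. Libraries of Foxp2hum/hum mice ran from 0.962 through 8.94 to 17.7 in DMS and from 3.97 through 20.03 to 40.4 in DLS. All ranges overlapped and each library rests on a few reads. On the log2 scale, DMS differed from DLS by -0.34 ± 0.42 in wild-type (limma adjusted p = 0.648) and -1.21 ± 0.41 in Foxp2hum/hum (adjusted p = 0.0287). The latter call was lost without any 1 of the libraries 41, 46, 64 and 80, at adjusted p values up to 0.0663.

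Cbln4 ran from 1.69 through 25.97 to 55.0 in wild-type DMS and from 3.22 through 7.62 to 20.6 in wild-type DLS, and from 0 through 18.3 to 38.1 and 0 through 7.27 to 30.6 in Foxp2hum/hum. Its log2 differences of 1.03 ± 0.53 and 1.24 ± 0.51 pointed toward DMS but did not pass (adjusted p = 0.198 and 0.0874). Cbln1 had medians of 12.98 and 11.8 in wild-type and of 14.3 and 9.47 in Foxp2hum/hum (log2 0.23 and 0.75), and a further gene model inside it held 80.2% of its reads. Cbln3 had medians from 6.78 to 9.71 in the 4 groups and was not tested.

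Some of these calls moved when a marker of choroid plexus entered the fit. With Ttr as a covariate, 14 genes passed in wild-type (6 higher, 8 lower) and 10 in Foxp2hum/hum (4 higher, 6 lower). Over all genes tested, calls went from 3377 to 2758 in wild-type and from 3550 to 2279 in Foxp2hum/hum in the same fit. The latter fit lost Cntn5, Odz3, Odz4, Flrt3 and Cbln2, and in wild-type it lost Odz4. Lrrtm1, Lrrtm2, Cntn3, Lrfn2, Odz2, Slitrk2 and Slitrk4 passed in both genotypes in each of the alternative fits that tested them and without each single library.

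Other adhesion genes were read from a list of 59 partners of these families, such as the receptor phosphatases, netrin-G proteins, neurexophilins, CASPR proteins and SynCAMs. Of these, 57 could be tested, and C1ql4 was not analysed here. In wild-type 16 passed, 8 in each direction, and in Foxp2hum/hum 15 passed, 7 higher and 8 lower. These are 28.1% and 26.3% of the partners, beside 17.3% and 18.1% of all genes. In both genotypes and the same direction 11 partners passed, and the matching share of all genes was not counted. The median absolute log2 difference was 0.25 and 0.19, beside 0.19 and 0.18 over all genes, so that in Foxp2hum/hum the partners lay close to all genes. None passed between genotypes.

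The partner with the smallest p was Cadm1, a synaptic adhesion protein of the immunoglobulin type. It ran from 1501 through a median of 1848 to 2231 in wild-type DMS and from 578 through 775 to 990 in DLS, and in Foxp2hum/hum from 1474 through 1863 to 2227 and from 483 through 730 to 1130. No DLS library came near a DMS library of either genotype (log2 1.246 ± 0.10 and 1.27 ± 0.09, limma adjusted p = 1.14e-14 and 1.09e-15). Its relative Cadm2 ran the other way, from 1591 through 2396 to 3249 in wild-type DMS and from 3458 through 4275 to 5214 in DLS, and from 1961 through 2342 to 2863 and 3495 through 4041 to 5698 in Foxp2hum/hum. Again no range overlapped (log2 -0.89 ± 0.10 and -0.86 ± 0.10, adjusted p = 1.59e-09 and 1.11e-09). Cadm1 and Cadm2 thus split by region in opposite directions, as Lrrtm1 and Lrrtm2 did. Each was named for a small p in its own direction, so the pair does not describe the SynCAM genes as a family.

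Of the CASPR genes, which encode partners of contactins, those among the smallest p in each direction are given. Picked in this way, they cannot show how the CASPR genes lie as a family. Cntnap5a (log2 1.17 ± 0.20 and 1.23 ± 0.20) and Cntnap3 (1.02 ± 0.18 and 1.36 ± 0.18) were higher in DMS, with Cntnap3 medians of 315 against 134 in wild-type and 323 against 112 in Foxp2hum/hum. Cntnap1, the CASPR of the paranodal junction, was lower (-0.87 ± 0.17 and -0.94 ± 0.16), with medians of 2044 against 3824 and 1751 against 3466. Nxph4, of the secreted neurexophilin family that binds neurexins, was lower at a low level (-2.08 ± 0.39 and -1.54 ± 0.37), with medians of 10.2 against 30.6 and 8.49 against 29.6. For Cntnap1, Cntnap5a and Nxph4 the ranges overlapped in both genotypes, and for Cntnap3 in wild-type.

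The second question was whether the humanised allele altered these genes in either territory. No adhesion gene passed between Foxp2hum/hum and wild-type mice in DMS or in DLS, nor did any pass for the interaction of genotype and region (0% of all genes passed in each of the 3 limma tests). At an unadjusted p of 0.05, 0 of the 40 genes were reached in DMS, 1 in DLS and 0 for the interaction, against 700, 843 and 321 of all 19561 genes. edgeR and DESeq2 on the recovered reads called 0 members as well.

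The smallest p in DMS belonged to Cntn2, a contactin of myelinated axons. It ran from 595 through 904 to 1268 in wild-type and from 429 through 734 to 995 in Foxp2hum/hum, with broad overlap. The log2 difference was -0.26 ± 0.15 (limma adjusted p = 0.955). In DLS it was Flrt3, whose values are given above, at -0.21 ± 0.10 (limma adjusted p = 0.843). For the interaction it was Cbln2, at -0.87 ± 0.59, again with few reads.

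Intervals show, gene by gene, how large a difference could have been missed if the libraries are independent. They were not adjusted for the number of genes. The 95% interval of the difference between genotypes was set against a limit of 1.5-fold in either direction. It stayed within this limit for 34 of 40 genes in DMS (against 71.7% of all genes tested) and for 33 in DLS (against 70.1%). Those outside in both regions were Cbln1, Cbln2, Cbln4, Flrt1, Lrfn2 and Slitrk6, which with Odz1 varied most between libraries among the tested genes, and Nlgn3 was outside in DLS. All teneurins and LRRTM genes, Nrxn2 and Nrxn3 lay within it. For the interaction 30 of 40 did, against 57.7% of all genes tested.

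**Figure D4:**
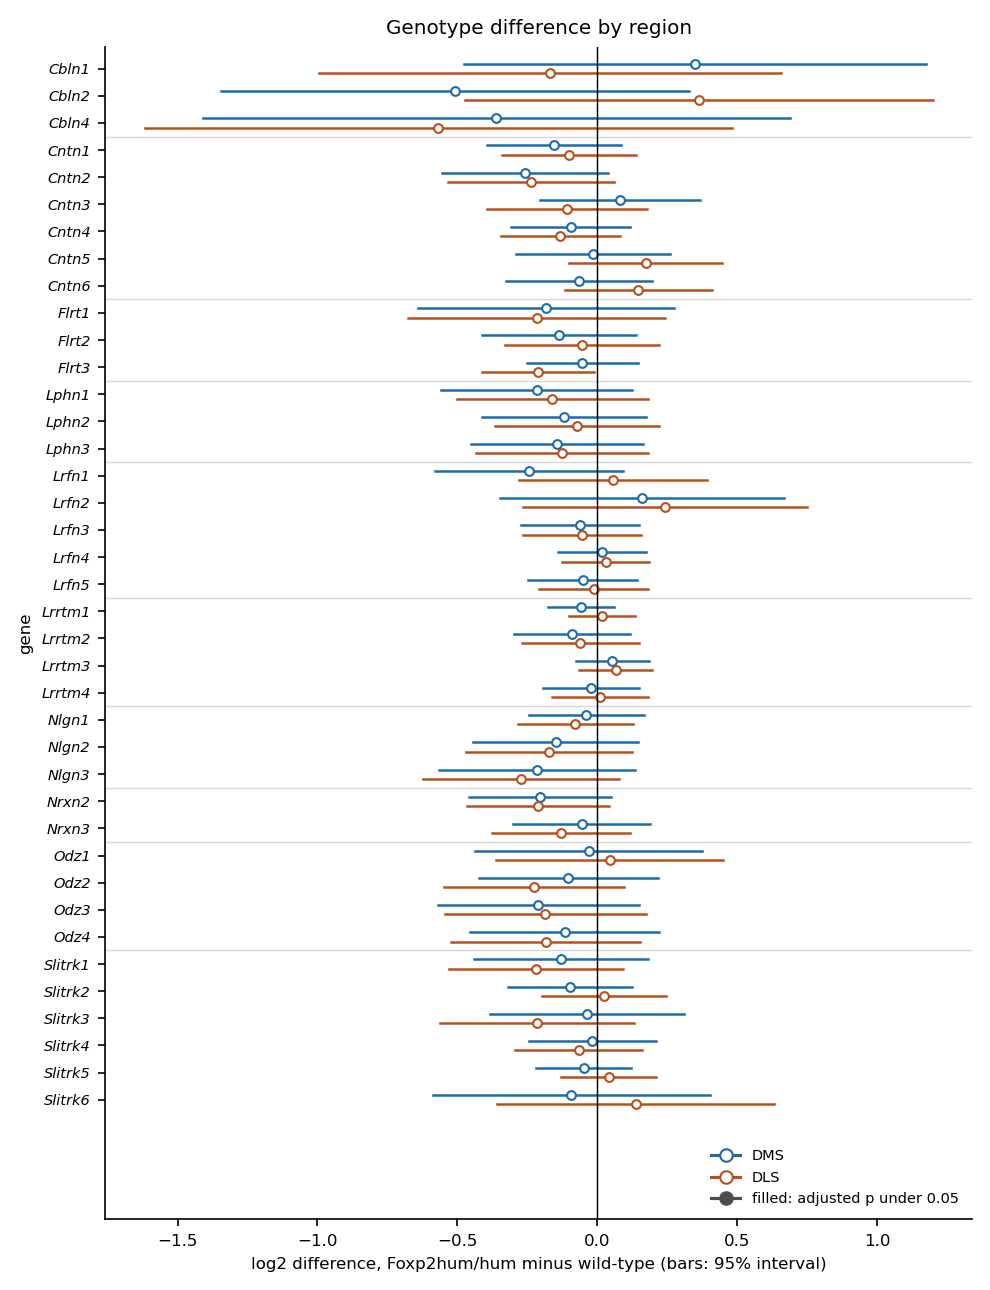
Log2 difference of Foxp2hum/hum minus wild-type (x axis) for the tested genes reported here (y axis, grouped by family), in DMS (blue) and DLS (orange), with 95% intervals as bars. No point is filled, as none passed at adjusted p 0.05, and most DMS values lie left of 0.

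Small differences pointed mostly one way. In DMS 35 of 40 genes (87.5%) had a lower fitted mean in Foxp2hum/hum, with a median log2 difference of -0.09, while 49.9% of all genes tested did. In DLS it was 27 of 40 (67.5%), with a median of -0.09, against 52.0% of all genes. The partner genes leaned the same way, with 47 of 57 lower in DMS (82.5%) and 45 of 57 in DLS (78.9%). The genes are not independent measurements, since they rose and fell together across libraries. Leaving out 1 library at a time gave 27 to 36 genes in DMS, with medians from -0.13 to -0.04, and 25 to 30 genes in DLS, with medians from -0.13 to -0.05. The count of 27 and the median of -0.04 in DMS were those without library 72 alone. The DMS median also shrank by over 1.5 times, to -0.06, without library 64 or 88, and the DLS median did so without library 70 or 89 (both -0.05) or 60 (-0.06). Mitochondrial reads took a median share of 21.5% (wild-type) and 22.1% (Foxp2hum/hum) in DMS, and of 22.2% and 24.4% in DLS. With that share as a covariate, the counts were 28 in DMS and 24 in DLS and the medians -0.04 and -0.02.

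A few libraries held many of the extreme values. In wild-type DMS, library 72 held the highest value of 25 of the 41 genes (60.98%, against 18.9% of all genes tested), and in wild-type DLS library 70 held that of 18 (43.9% against 15.1%). Library 84 in Foxp2hum/hum DMS held 16 (39.02% against 10.8%) and library 94 in Foxp2hum/hum DLS held 24 (58.5% against 20.2%). The lowest values gathered in libraries 34 and 76 of wild-type DMS, for 13 genes (31.7% against 16.6% of all genes) and 12 genes (29.3% against 15.1%). In wild-type DLS library 51 held the lowest value of 16 (39.02% against 20.5%). Library 64 in Foxp2hum/hum DMS held that of 21 (51.2% against 22.8%) and library 60 in Foxp2hum/hum DLS that of 15 (36.6% against 20.2%).

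The genes involved came from most families. Among others, Odz2, Odz3, Odz4, Nrxn2, Nrxn3, Nlgn3, Flrt1, Lphn1 and Lphn3 were at their highest in library 72, and in wild-type DLS all of these were at their highest in library 70. Library 72 had the lowest mitochondrial share of its group, at 11.9%, and library 70 that of its own, at 18.2%, whereas library 51 had the highest of its group, at 29.3%. The others held no such place: among those with many highest values, libraries 84 and 94 were at 21.04% and 21.9%, and among those with many lowest values, libraries 34, 76, 64 and 60 were at 21.5%, 16.2%, 25.6% and 28.5%. The part of these shares in the common movement was not tested. Without libraries 70, 72, 84 and 94 together, 14 genes passed between regions in wild-type (7 higher, 7 lower) and 15 in Foxp2hum/hum (8 higher, 7 lower). These included all 12 and all 14 called with every library. Over all genes tested, calls went from 3377 to 3442 in wild-type and from 3550 to 3533 in Foxp2hum/hum. No adhesion gene passed between genotypes in that fit.

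**Figure D5:**
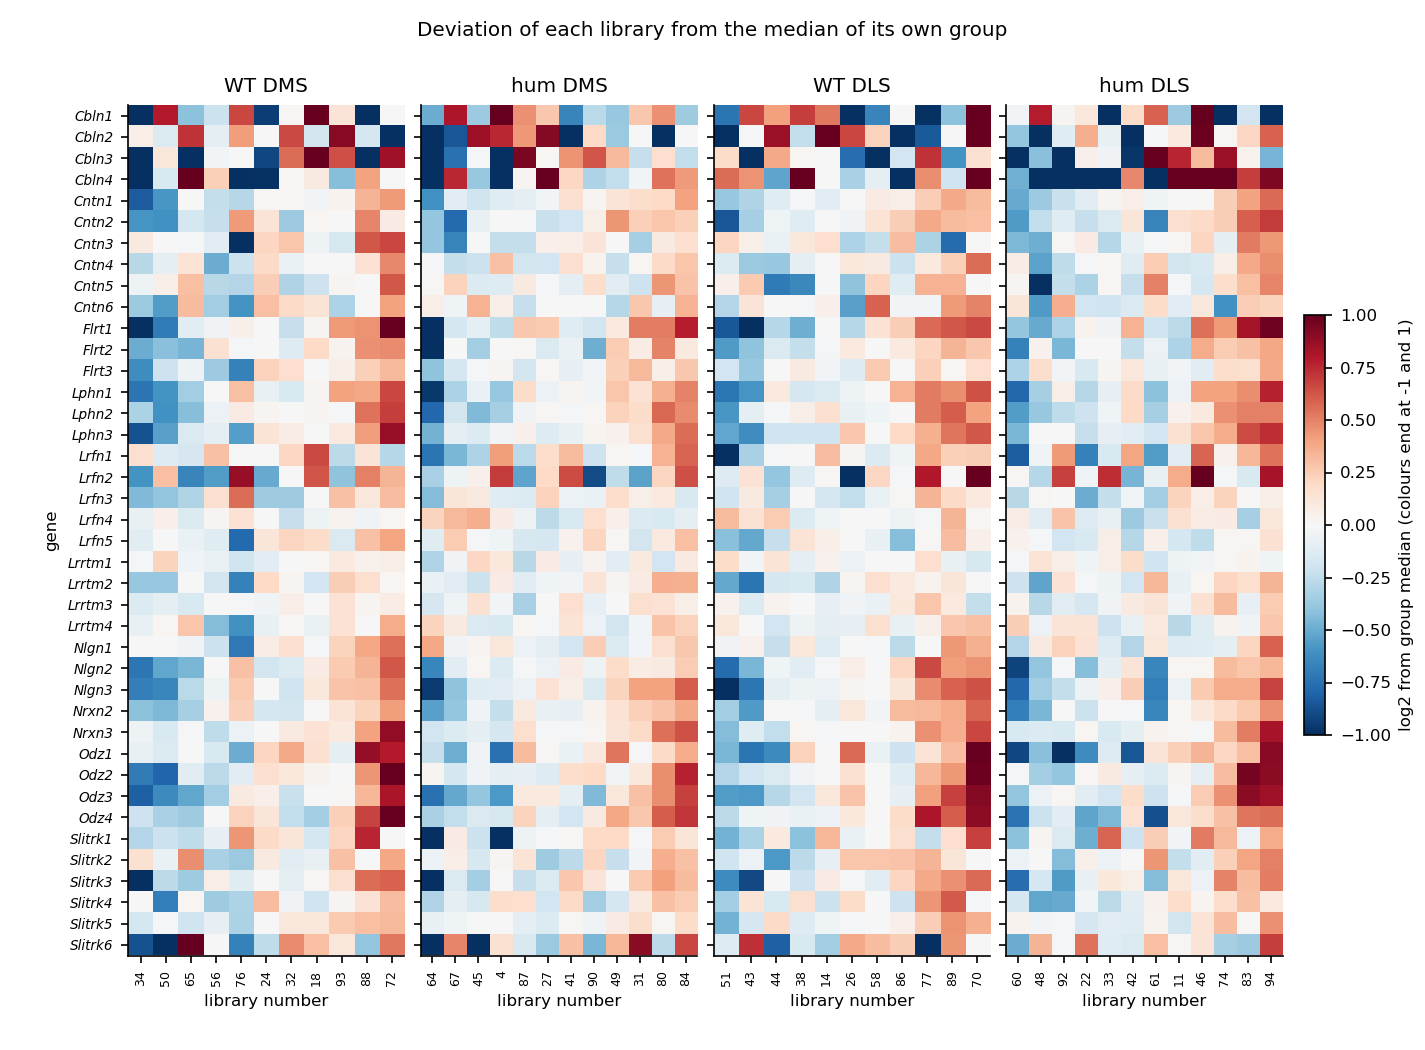
Deviation of each library (columns, by library number, in 1 panel per group and sorted within it by their median deviation) from the median of its own group for the genes reported here (rows), in log2 units of normalised reads plus 1, with colours ending at -1 and 1. The rightmost columns of the panels (72, 84, 70 and 94) are red for most families and the leftmost (34, 64, 51 and 60) blue, while the Lrrtm1, Lrrtm3 and Lrfn4 rows stay pale.

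Members differed in how much they took part. The coefficient of variation within a group, as the median of the 4 groups, was 7.81% for Lrrtm1, 9.82% for Lrrtm3, 11.5% for Lrrtm4 and 12.7% for Lrfn4. It was 30.7% to 36.3% for the 4 teneurins and 55.0% to 69.7% for the cerebellins, whose low reads add counting error. Lrrtm1 therefore passed between regions with a log2 difference smaller than that of Odz1, which did not.

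Levels were compared between genes only per kilobase of annotated exon, over all 46 libraries. Lphn1 stood highest at 606 ± 212 (SD) normalised reads per kilobase, with its antisense overlap, followed by Nlgn2 at 431 ± 108, Lrrtm3 at 381 ± 41.2, Lrrtm1 at 320 ± 45.3, Nrxn3 at 290 ± 75.1 and Cntn1 at 277 ± 55.2. Neighbours in this order lay within the larger of their SDs of each other, except Lrrtm3 and Lrrtm1, whose means lay further apart than either SD. Within families the leading genes were Nlgn2 among neuroligins, Lrrtm3 among LRRTM genes, Lrfn4 (139 ± 16.5) among LRFN genes, Slitrk5 (159 ± 22.97) among SLITRK genes and Flrt3 (168 ± 34.2) among FLRT genes. The teneurins were lower, with Odz3 at 86.9 ± 36.2, Odz2 at 78.3 ± 36.8, Odz4 at 50.5 ± 18.5 and Odz1 at 6.95 ± 2.46. The lowest levels were those of the cerebellins, from 1.69 to 5.96. Where counts span introns, long genes such as Nrxn3 or Cntn1 hold more reads per exon length than their mature RNA would give.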

How the data were processed

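Tissue was laser-captured, RNA was isolated with a kit for small amounts, and libraries were made from low input, per the labels' protocols. The submitters' processing notes name mm9, TopHat 1.4.1, bedtools and DESeq. The deposited values are a normalised signal: read counts per gene that the authors divided by 1 size factor per library. Whole reads were recovered from 100% of values within a tolerance of 0.01, with totals of 16.79 to 41.01 M per library, which leaves little counting error for all but the lowest genes. Libraries of a group differed beyond counting error (chi-square per degree of freedom at least 9.84), so none was counted as a copy.

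Genes were matched to mm9 by Ensembl identifier in GENCODE M1 (25023 of 25259). Overlapping genes are named where their reads came to at least 10% of a member's. A limma model (3.58.1, R 4.3.3) of log2(value + 1) was fitted to the 19561 genes whose mean reached 10, with 4 group means over 46 libraries, a trended prior, two-sided tests and Benjamini-Hochberg adjustment over all genes at 0.05. Fold sizes on this scale understate changes of low genes. Alternatives were pseudocounts of 0.5 and 5, no filter or a mean of 50, quantile and TMM scaling, array weights, the compared groups alone, Ttr as a covariate, edgeR 4.0.16 and DESeq2 1.42.0 on the recovered reads, and leaving out each library or libraries 70 and 72. Added after seeing the data were the mitochondrial share as a covariate and leaving out libraries 70, 72, 84 and 94. The fit was tested on simulated counts drawn separately for each gene, which leaves out the common movement of genes between libraries.

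The members, partner list and marker lists were chosen with earlier results of these data known. Full values are given for members that passed between regions with a log2 difference of at least 0.5 in either genotype, for all members of a family in which such a gene was the only one called, and for the smallest p in each genotype test and the interaction. The 3 partners with the smallest p in each direction are named. The values of 1 member are not reported here, though it is included in the counts.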

Additional observations from a re-analysis of the deposited data

How the results depend on the processing

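In the 14 alternatives, the number of adhesion genes that passed between regions was 11 to 19 in wild-type, against 12, and 10 to 18 in Foxp2hum/hum, against 14. The highest wild-type count, 19 genes (12 higher, 7 lower), came from limma array weights and was the only count over 1.5 times away, in a fit where calls over all genes rose from 3377 to 4577. The cause was not tested. The mitochondrial share as a covariate gave 18 in Foxp2hum/hum (all genes from 3550 to 4558), and Ttr as a covariate gave 10 (all genes 2279), of which 9 were among the 14. Leaving out 1 library at a time gave 10 (without library 89) to 14 (without library 94) in wild-type and 13 to 15 in Foxp2hum/hum. Both genotype comparisons and the interaction stayed at 0 members throughout. None of the regional differences that passed changed sign in any fit. Differences near 0 that did not pass did: 20 genes had a value below 0 between regions in wild-type, and 25 with Ttr as a covariate. The filter at a mean of 50 removed Lrfn2, Slitrk6 and the cerebellins from testing, so those have no value there. No paired analysis was possible because the labels and columns carry no replicate or animal number shared between groups. Regions taken from 1 animal would be treated as independent by these tests. Low read numbers limited the precision most for the cerebellins, Lrfn2 and Slitrk6.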
